A study of Mus musculus with 8 samples.

Results

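In the liver metastasis (liver mets) cell line, 168758 distinct chromatin loops were listed by FOXA1 Hi-ChIP, by HNF4G Hi-ChIP or by both, and the lists of the 2 factors were compared loop by loop. A loop is a pair of genomic anchors, and loops were matched only where both anchors had identical coordinates in the mouse build mm10 (GRCm38). The FOXA1 list held 125623 loops and the HNF4G list 78098, together 203721 of the 384180 list entries in the series. This divided the loops into 90660 listed by FOXA1 only, 43135 listed by HNF4G only and 34963 shared by both. The FOXA1-only loops spanned more DNA and met gene starts less often than the HNF4G-only loops. FOXA1 loops were over-represented in gene-poor windows and along chromosome 13, and HNF4G loops in gene-dense windows and at loops that join a promoter to a promoter.

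The cells were mouse pancreatic cancer cells from KPC mice, a genetically engineered model of pancreatic cancer. One line came from a liver metastasis and a matched line from a primary tumor. All were labelled genotype WT and untreated and were grown in DMEM with 10% FBS, although the treatment field of the same labels also mentions CRISPR perturbation. Each group, FOXA1 liver mets, HNF4G liver mets, FOXA1 tumor and HNF4G tumor, had 2 replicates, which entered 1 joined list, so no spread between replicates could be computed. Each line is 1 cell line and cannot stand for metastases or tumors at large. The factors were pulled down with different antibodies, so factor, antibody and sequencing depth cannot be told apart where list sizes differ. Read depth was not given in the files, and the intervals below are 95% intervals for counting error only.

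FOXA1 is a forkhead factor, a pioneer that can bind its site in closed chromatin and open it for other factors in endoderm-derived tissues. HNF4G is a nuclear receptor related to HNF4A and is best known for controlling epithelial genes in the gut. Hi-ChIP ligates DNA ends that lie close together in the nucleus and then pulls down fragments bound by the chosen protein, so each loop is a contact with that protein at one or both ends. A loop from a distal anchor to an anchor at a gene start is often read as an enhancer contacting a promoter. The same contact may be listed for both factors.

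Short stretches of the anchors that differed most between the lists are printed first, as examples of motif matches there. They do not show why a factor listed an anchor. Each is from GRCm38, plus strand, 5′ to 3′, outside exons, with the motif in capitals. The first stretch, chr1:75337925-75338051, lies outside coding genes in an anchor with 20 FOXA1 loops and 1 HNF4G loop and carries a forkhead motif.
chr1 forkhead: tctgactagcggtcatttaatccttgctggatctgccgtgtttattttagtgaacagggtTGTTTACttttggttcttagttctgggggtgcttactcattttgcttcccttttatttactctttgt
The stretch chr7:139365358-139365484, also outside coding genes in a FOXA1-rich anchor, carries the forkhead motif on the other strand.
chr7 forkhead: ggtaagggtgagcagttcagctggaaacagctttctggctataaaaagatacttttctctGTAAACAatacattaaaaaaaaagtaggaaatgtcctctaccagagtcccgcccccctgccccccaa
The stretches chr1:184051987-184052113, in an intron of Dusp10, and chr1:184276051-184276177, between Dusp10 and Hlx, come from a pair of FOXA1-rich anchors of one locus and carry AP-1 motifs.
Dusp10 intron AP-1: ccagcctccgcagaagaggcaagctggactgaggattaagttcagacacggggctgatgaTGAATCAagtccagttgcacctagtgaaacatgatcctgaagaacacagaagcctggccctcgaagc
Dusp10 to Hlx AP-1: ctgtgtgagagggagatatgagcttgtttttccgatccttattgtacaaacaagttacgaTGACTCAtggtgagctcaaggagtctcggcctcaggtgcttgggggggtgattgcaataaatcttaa
The stretch chr6:83797517-83797643, in an intron of Nagk, carries an AP-1 motif in an HNF4G-rich anchor, and 68.4% of all anchors with 20 or more loops held such a match.
Nagk intron AP-1: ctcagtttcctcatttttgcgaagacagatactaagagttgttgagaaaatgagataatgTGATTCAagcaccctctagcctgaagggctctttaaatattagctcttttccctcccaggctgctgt
The stretch chr17:24390652-24390780, in an intron of Abca3, is shown because a FOXA1-rich anchor carries the HNF4 motif there.
Abca3 intron HNF4: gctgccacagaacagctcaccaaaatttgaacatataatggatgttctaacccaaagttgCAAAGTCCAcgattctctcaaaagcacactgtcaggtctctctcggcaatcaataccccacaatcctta
The stretch chr4:141873857-141873983, in an intron of Efhd2, is the reverse case, an HNF4G-rich anchor that carries a forkhead motif on the other strand.
Efhd2 intron forkhead: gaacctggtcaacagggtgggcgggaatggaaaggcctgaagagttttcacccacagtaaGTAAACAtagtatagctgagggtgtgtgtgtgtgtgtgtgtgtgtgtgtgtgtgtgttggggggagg

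Spans of the factor-specific loops differed modestly, and both sets reached much further than the shared loops. Span was taken between anchor midpoints. The median was 247 kb for FOXA1-only loops, 215 kb for HNF4G-only loops and 53.6 kb for shared loops. Long loops, those reaching at least 100 kb, were 73.9% of the FOXA1-only set, 70.5% of the HNF4G-only set and 32.2% of the shared set, so the 2 factor-specific sets differed by 3.32 percentage points (interval 2.81 to 3.84). Those reaching at least 1 Mb were 12.9% of the FOXA1-only and 12.1% of the HNF4G-only set, and loops under 20 kb 4.54% and 5.60%. The ratio of the whole lists, FOXA1 over HNF4G, was 1.61 (1.59 to 1.62) and rose with span, from 1.15 under 20 kb to 1.89 between 200 and 500 kb and 2.15 between 1000 and 2000 kb.

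The span difference had the opposite direction in the tumor line, whose lists held 104136 FOXA1 and 76323 HNF4G loops. There the median span was 207 kb for FOXA1-only and 235 kb for HNF4G-only loops, and long loops made up 69.4% and 72.9%, a difference of -3.48 points (-4.00 to -2.95). The tumor ratio of the lists stayed between 1.24 and 1.44 over all span ranges. The authors deposited an unnamed value with each loop that behaves like a significance score, and 96.6% of FOXA1 and 98.4% of HNF4G loops of 1 Mb or more sat at one repeated value, 1.87 in the FOXA1 list and 1.99 in the HNF4G list. A value of 2 or more, above both, was reached by 7.67% of the FOXA1-only loops and 4.88% of the HNF4G-only loops. Because the repeated values differ, a value of 2 need not mean the same in both lists, and each comparison at such a limit carries that uncertainty.

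Promoters were met more often by HNF4G-only loops. An anchor was called a promoter anchor where an annotated transcript start lay within 2 kb of it. At least 1 promoter anchor was present in 70.6% of FOXA1-only loops, 74.4% of HNF4G-only loops and 72.3% of shared loops, a difference between the factor-specific sets of -3.82 points (-4.33 to -3.31). The difference lay in the loops that join promoter to promoter, which made up 25.9% of FOXA1-only and 29.8% of HNF4G-only loops (-3.89 points, -4.41 to -3.37). Loops with exactly 1 promoter anchor were at 44.6% in both sets (difference 0.07 points, -0.50 to 0.64). Within span ranges the odds of a promoter anchor in FOXA1-only loops were 0.813 times those in HNF4G-only loops (0.792 to 0.834), and in each of the 7 ranges the ratio lay between 0.775 and 0.856.

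The promoter difference had the same direction in the tumor line, where 70.9% of FOXA1-only and 76.5% of HNF4G-only loops had a promoter anchor and the odds ratio within spans was 0.763. Over whole lists, loops without a promoter took 1.09 times as large a share of the FOXA1 as of the HNF4G list in the liver mets line and 1.16 times in the tumor line. Loops between promoters took 0.910 and 0.877 times as large a share. Where the value was at least 2 in the liver mets line, the promoter share was 70.5% for 6954 FOXA1-only loops and 78.7% for 2106 HNF4G-only loops, and at 4 or more it was 69.1% and 82.2%.

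**Figure D1:**
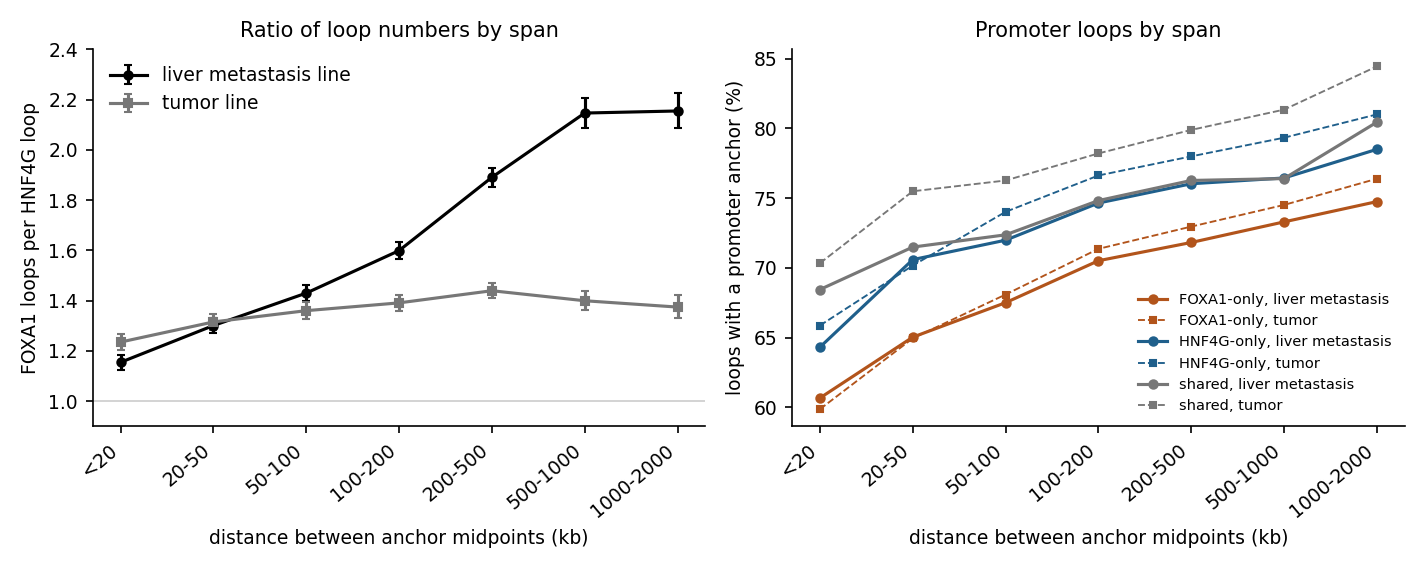
Left, number of FOXA1 loops per HNF4G loop by distance between anchor midpoints (kb) in the liver mets line (circles) and the tumor line (squares), with 95% counting intervals. Right, percentage of FOXA1-only, HNF4G-only and shared loops with a promoter anchor in the same ranges (solid, liver mets; dashed, tumor). The liver mets ratio rose from 1.15 to 2.15 with span while the tumor ratio stayed between 1.24 and 1.44, and the FOXA1-only loops lay below the HNF4G-only loops in each range of both lines.

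The highest-value factor-specific loops were few and were named by their value. A pair of FOXA1-only loops had the top value of 20. The first joined chr15:77878808-77890878 to an anchor 965 kb away, chr15:78841676-78857967, that holds the starts of Cdc42ep1, an effector of the Cdc42 GTPase, and Lgals2, a galectin. It was listed for HNF4G in the tumor line with a value of 4.04 and was not in the FOXA1 tumor list. The second joined chr9:61010497-61018304 to chr9:61806752-61815227 over 797 kb and was in both tumor lists. Among HNF4G-only loops the highest value was 9.82, for chr6:124903071-124906106 joined to chr6:125094432-125097908 at the start of Chd4, a chromatin remodeler, over 192 kb. The next, at 9.43, joined the start of Rcc1, which loads the Ran GTPase in the nucleus, to that of Sesn2, a stress-response gene, over 157 kb.

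Anchor use overlapped far more than loops did. The shared loops made up 27.8% of the FOXA1 list (27.6 to 28.1) and 44.8% of the HNF4G list (44.4 to 45.1). Of 30121 anchors in use, 27181 were used by both lists, 2391 by the FOXA1 list only and 549 by the HNF4G list only. All 4 lists together used 30542 anchors with identical coordinates, and the source of the anchors is not given. An anchor set common to the lists thus cannot be told apart from binding of both factors at the same sites. Promoter anchors made up 46.2% of the anchors of both lists, 45.4% of the anchors of the HNF4G list only and 35.3% (33.4 to 37.2) of the anchors of the FOXA1 list only. An anchor had a median of 7 FOXA1 and 4 HNF4G loops, and the 2 counts went together with r = 0.834 and rho = 0.758 over the 30121 anchors, which lie on the same chromosomes and share neighbors. Of the 100 most connected anchors of each list, 64 were the same.

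Loops listed by 1 factor in the liver mets line were about equally often found in the tumor line. In the FOXA1 tumor list were 23.7% of FOXA1-only and 23.7% of HNF4G-only loops, and in the HNF4G tumor list 16.8% and 18.4%, against 60.9% and 50.8% of shared loops. Among those found in only 1 of the tumor lists, FOXA1-only loops had 1.16 times the odds of being in the FOXA1 rather than the HNF4G one (1.10 to 1.21), and 1.16 within span ranges. The factor that listed a loop in one line was thus a weak guide to the factor that listed it in the other. For values of at least 2 the odds ratio was 1.17 and its interval reached below 1 (0.992 to 1.39).

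Windows of 1 Mb were compared next, each loop counted once at its midpoint. Values are log2 ratios of a window's share of the FOXA1 list to its share of the HNF4G list, with 1 added to each count. Without scaling to shares each value would be 0.69 higher. Of 977 windows with 40 or more loops, 60 (6.14%) held at least 1.5-fold more of the FOXA1 list and 28 (2.87%) at least 1.5-fold more of the HNF4G list. The counting interval left out a ratio of 1 in 53 of the 977 windows on the FOXA1 side and 51 on the HNF4G side. Where only loops of 1 factor were counted the numbers were 73 and 69. That recount drops the shared loops, which tends to move ratios away from 1, so it is not separate support. FOXA1-rich windows had a median of 6 coding gene starts, HNF4G-rich windows 14.5 and all 977 windows 11. Those with 5 or fewer starts made up 43.3%, 32.1% and 22.3%, so gene-poor windows were more frequent in both rich sets than among all. Loops of the FOXA1-rich, the HNF4G-rich and all windows spanned a median of 204, 103 and 138 kb. The share with a promoter anchor was 55.6%, 80.2% and 69.6%.

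The FOXA1-rich windows of most contrast were gene-poor. The window with the largest log2 ratio, 1.35, was chr13:109000001-110000000, which lies inside Pde4d, a cyclic AMP phosphodiesterase gene, and holds no coding gene start. It held 93 FOXA1 and 22 HNF4G loops in the liver mets line and 61 and 30 in the tumor line. The adjoining window, chr13:110000001-111000000 with Plk2, a stress-induced kinase gene, held 59 and 15, and 37 and 17 in the tumor line. The window chr13:16000001-17000000, whose coding start is Inhba, the activin A subunit, held 49 and 12, and 39 and 25 in the tumor line. In chr3:60000001-61000000, around the splicing factor gene Mbnl1, the counts were 47 and 11, and 32 and 12 in the tumor line. In chr1:105000001-106000000, with Tnfrsf11a, the receptor RANK, the counts were 57 and 15, and 35 and 28 in the tumor line. The FOXA1 count was the higher in all 5 windows in both lines, and in shares only the chr1 window fell below 0 in the tumor line (log2 -0.14).

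The HNF4G-rich windows of most contrast held fewer loops. In chr7:18000001-19000000, with Nova2 and Pglyrp1, 23 FOXA1 and 35 HNF4G loops were listed (log2 -1.27), and 23 and 31 in the tumor line. In chr5:110000001-111000000, with the autophagy kinase gene Ulk1 and the chromatin remodeler gene Ep400, there were 24 and 29, and 22 and 18 in the tumor line. In chr6:143000001-144000000, with Etnk1 and C2cd5, the counts were 17 and 23, and 26 and 14 in the tumor line. In chr4:142000001-143000000, with Fhad1 and Tmem51, they were 25 and 30, and 27 and 20 in the tumor line. In chr5:131000001-132000000, over Auts2 and Galnt17, they were 20 and 24, and 21 and 21 in the tumor line. The Etnk1, Fhad1 and Auts2 windows were gene-poor too, with 2, 3 and 1 coding starts. The Nova2 window held 21 and the Ulk1 window 23. In shares, 4 of these 5 windows were below 0 in the tumor line too, the exception being the Etnk1 window (log2 0.40). On raw counts, without the scaling to list size, these 5 windows kept more HNF4G loops, and only 1 of the 28 HNF4G-rich windows passed the fold.

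Over all 977 windows the ratio in the liver mets line went with that in the tumor line at r = 0.316 and rho = 0.329. Of the 60 FOXA1-rich windows 52 were above 0 in the tumor line, with a median log2 ratio of 0.36, where 56.7% of all windows were above 0. Of the 28 HNF4G-rich windows 18 were below 0, with a median of -0.13, where 43.3% of all windows were. Whether the windows of one factor kept their side more often than those of the other was not tested.

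**Figure D2:**
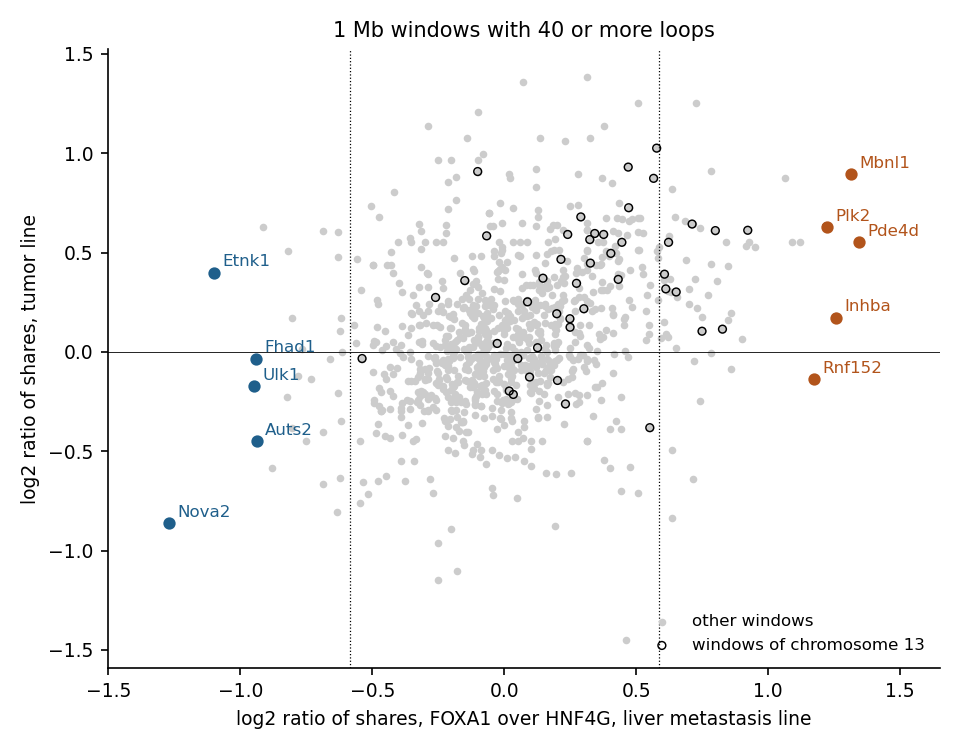
Log2 ratio of shares, FOXA1 over HNF4G, for the 977 windows of 1 Mb with 40 or more loops, liver mets line (horizontal) against tumor line (vertical). Filled colored points are the 10 named windows (orange, FOXA1; blue, HNF4G), open circles the windows of chromosome 13, and dotted lines the 1.5-fold limits. Of the 5 FOXA1 windows 4 lay above 0 in the tumor line, and of the 5 HNF4G windows 4 lay below 0.

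Gene content ordered the windows the same way in both lines. In the quintile of windows with the fewest coding starts (0 to 5) the FOXA1 share was 1.11 times the HNF4G share (1.08 to 1.14), and in the quintile with the most (21 to 67) it was 0.928 times (0.913 to 0.942). The quintiles between stood at 1.07, 1.04 and 0.960. In the tumor line the 5 ratios were 1.20, 1.09, 1.03, 0.960 and 0.908. Gene content moved with span and promoter share. Scaled to counts expected from the spans of the loops, the median log2 ratio was 0.14 in the first and -0.09 in the last quintile. Scaled to list shares, it was 0.12 and -0.11. The part of promoter share in the gradient was not tested.

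Chromosome 13 had the highest FOXA1 share of any autosome. It held 4064 FOXA1 and 1925 HNF4G loops in the liver mets line, a ratio of shares of 1.31 (1.24 to 1.39), and 3173 and 1780 in the tumor line, a ratio of 1.31 (1.23 to 1.39). The next autosome, chromosome 3, stood at 1.12 and 1.10, and the lowest, chromosome 17, at 0.895 and 0.955. Of the 47 windows of chromosome 13, 41 were above a ratio of 1, 12 were FOXA1-rich and 0 were HNF4G-rich. Where only values of at least 2 were counted, the ratio was 2.17 (1.73 to 2.76). In the gene-poorest quintile of windows the ratio was 1.45 on chromosome 13 and 1.08 elsewhere, and in the middle quintile 1.33 and 1.03. In the gene-richest quintile, with 3 windows on chromosome 13, the ratios were 1.07 (0.818 to 1.40) and 0.927. Copy number was not measured here, and its part in the excess was not tested.

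**Figure D3:**
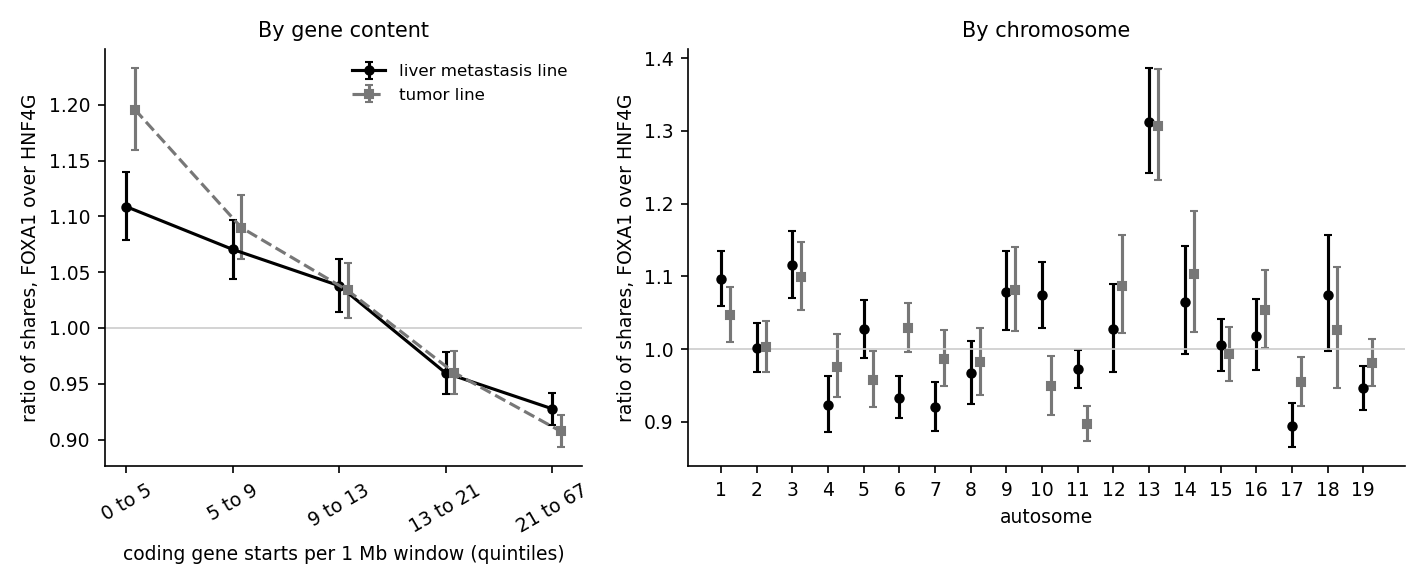
Ratio of shares, FOXA1 over HNF4G, by quintile of windows ranked on coding gene starts and by autosome, in the liver mets and the tumor line, with 95% counting intervals. The ratio fell from 1.11 to 0.928 over the quintiles in the liver mets line, and chromosome 13 stood at 1.31 in both lines.

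Single anchors differed less firmly than windows. Of 6499 anchors with 20 or more loops, 157 (2.42%) held at least 2-fold more of the FOXA1 list and 168 (2.59%) at least 2-fold more of the HNF4G list. The counting interval left out a ratio of 1 at 68 anchors on the FOXA1 side and 77 on the HNF4G side. Intervals of this kind could leave out at least as many of the 6499 anchors by counting error alone. Those 68 and 77 anchors thus cannot be taken as anchors that each differ. Where only loops of 1 factor were counted, the numbers were 227 and 193. An anchor's ratio went with that in the tumor line at r = 0.173 and rho = 0.164. Of the 157 FOXA1-rich anchors 88 were above 0 in the tumor line, where 40.3% of all anchors were, and of the 168 HNF4G-rich anchors 115 were below 0, where 59.7% of all were.

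A pair of the strongest FOXA1-rich anchors lay in and beside Dusp10, a phosphatase gene that restrains stress-activated MAP kinases. The anchor in a Dusp10 intron, chr1:184050995-184054984, had 29 FOXA1 and 3 HNF4G loops in the liver mets line and 13 and 5 in the tumor line, with 3 AP-1 matches in its sequence. The anchor between Dusp10 and Hlx, chr1:184274743-184278158, had 28 and 3, and 15 and 11 in the tumor line, with 2 AP-1 matches. Its FOXA1-only loop of highest value, 10.4, reached 397 kb to chr1:184670939-184676895, and a shared loop reached the start of the homeobox gene Hlx over 454 kb. Both anchors held more FOXA1 than HNF4G loops in each line, and in the tumor line the shares of the second were even (log2 -0.03).

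The other FOXA1-rich anchors were partly at gene starts. The anchor at Tcea3, which encodes a transcription elongation factor, chr4:136248878-136251364, had 25 FOXA1 loops and 1 HNF4G loop, and 11 and 4 in the tumor line (log2 ratio 3.01 and 0.81). Its FOXA1 partners included the starts of E2f2, Grhl3 and Id3. The anchor at Sun2, a nuclear envelope gene, chr15:79740332-79743433, had 21 and 2, and 10 and 11 in the tumor line. The anchor chr1:75336762-75339422, 20.1 kb from the nearest coding start, that of Dnpep, had 20 and 1, and 15 and 10. The anchors in introns of Abca3, a lipid transporter gene, and Nsmce2, a SUMO ligase gene, had 19 and 2 and 18 and 2, and 7 and 5 and 7 and 4 in the tumor line. The anchor 25.1 kb from the start of Inpp5a had 19 and 2, and 7 and 3. Of these 8 anchors, 7 had more FOXA1 than HNF4G loops in the tumor line, whose FOXA1 list was the larger. In shares 5 of the 8 were above 0 there, where 40.3% of all 6499 anchors were.

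The strongest HNF4G-rich anchors lay at gene starts in 6 of 8 cases. Among all 168 HNF4G-rich anchors the share at promoters was 53.6%, beside 53.7% of all 6499 anchors. The anchor at Efhd2, a calcium-binding protein gene, chr4:141872861-141875896, had 6 FOXA1 and 17 HNF4G loops, and 9 and 11 in the tumor line (log2 ratio -2.05 and -0.71). The anchor in Palm, chr10:79797029-79799092, had 9 and 19, and 7 and 19 in the tumor line, the nearest to the same contrast in both. At Nagk, an amino sugar kinase gene, the counts were 6 and 14, and 13 and 10 in the tumor line, with 3 AP-1 matches. At Ccdc78 and Haghl they were 7 and 16, then 10 and 4. At Abcf3 they were 9 and 19, then 17 and 10, with 2 AP-1 matches. The anchors at Asb6, near Asprv1 and at Cd81 and Tssc4 had 8 and 16, 8 and 16, and 9 and 17, then 13 and 11, 15 and 7, and 13 and 10. Of these 8 anchors, those at Efhd2 and Palm had more HNF4G loops in the tumor line as well. In shares 5 of the 8 were below 0 there, where 59.7% of all 6499 anchors were.

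**Figure D4:**
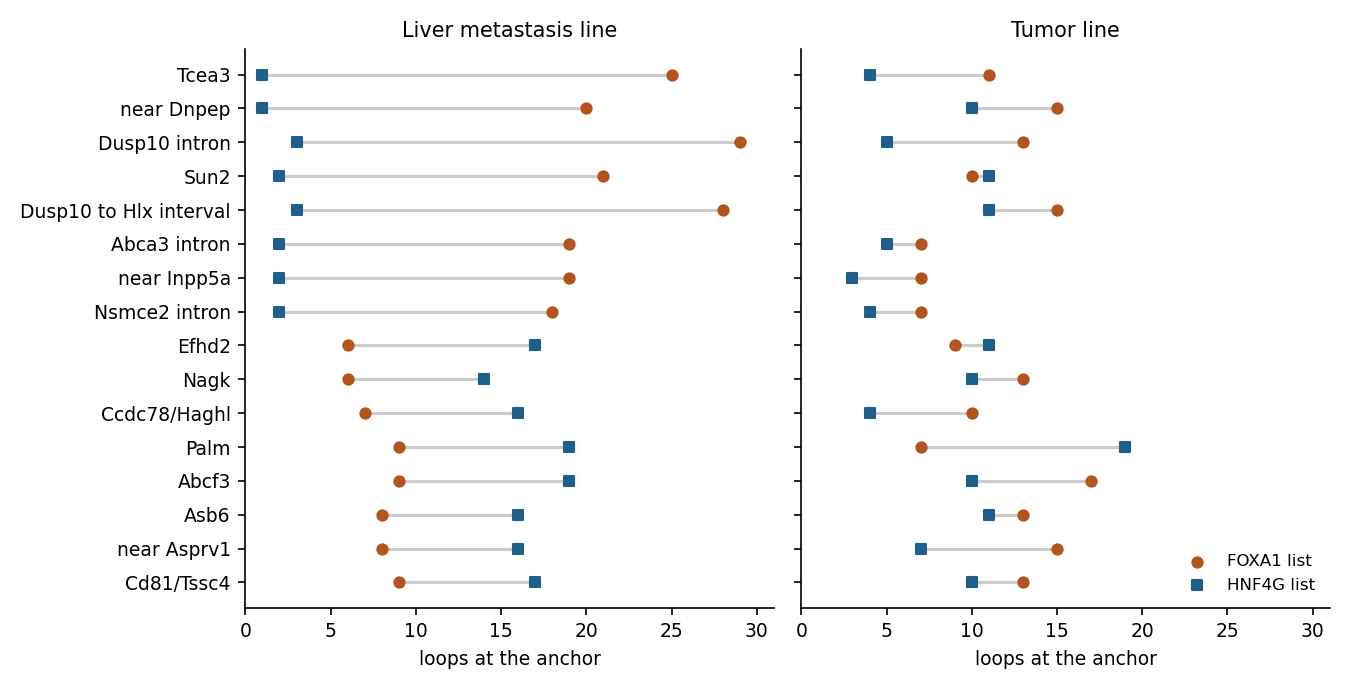
Loops of the FOXA1 and the HNF4G list at the 8 anchors with the highest and the 8 with the lowest ratio, liver mets and tumor line. The 8 FOXA1-rich anchors had 18 to 29 FOXA1 loops against 1 to 3 HNF4G loops in the liver mets line, and 7 to 15 against 3 to 11 in the tumor line.

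Genes were compared over loops with an anchor within 2 kb of a start of a protein-coding gene. Of 3108 genes with 20 or more loops, 38 (1.22%) held at least 2-fold more of the FOXA1 list and 74 (2.38%) at least 2-fold more of the HNF4G list, with a median log2 ratio of -0.15 over all. The counting interval left out a ratio of 1 for 19 genes on the FOXA1 side and 54 on the HNF4G side. As with the anchors, counting error alone could leave out at least as many of the 3108 genes. Those 19 and 54 genes thus cannot be taken as genes that each differ. Where only loops of 1 factor were counted, the numbers were 65 and 127. After Tcea3 and Sun2, the FOXA1-rich genes with the highest ratios were Btc, an EGF receptor ligand, with 18 and 3 loops (11 and 8 in the tumor line), and P4ha3, a collagen prolyl hydroxylase, with 33 and 7 (16 and 14). In shares both were just below 0 in the tumor line (log2 -0.03 and -0.27). They were followed by Ddi2, Baz2b, Tcf25, Kctd13, Klrb1f, Trim10 with Trim15, Ube2b and Tmem179, with 18 to 26 FOXA1 and 4 to 6 HNF4G loops. For Baz2b, Kctd13, Klrb1f, Trim10 and Ube2b the counting interval of the ratio held 1.

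HNF4G-rich genes beside those at the anchors above included Rasa3, a Ras GTPase-activating protein, with 16 FOXA1 and 28 HNF4G loops, and 27 and 20 in the tumor line (log2 -1.46 and -0.03). Ube2c, a ubiquitin-conjugating enzyme of mitosis, had 8 and 15 (10 and 7 in the tumor line), and Dctn1, a dynactin subunit, 10 and 16 (19 and 12). Rsrp1 had 11 and 19 (15 and 18), Acadvl, an enzyme of fatty acid oxidation, 8 and 13 (8 and 11), and Hgfac, the activator of hepatocyte growth factor, 8 and 13 (7 and 11). The last 3 had more HNF4G loops in both lines. Over all genes the ratios of the lines went together at r = 0.139 and rho = 0.129. Of the 38 FOXA1-rich genes 16 were above 0 in the tumor line, where 36.6% of all genes were, and of the 74 HNF4G-rich genes 55 were below 0, where 63.4% of all were.

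None of the FOXA and HNF4 genes with 20 or more loops passed the fold. Foxa3 had 9 FOXA1 and 11 HNF4G loops (log2 ratio -0.95), Hnf4a 10 and 12 (-0.93) and Foxa2 18 and 11 (-0.02), beside a median of -0.15 for all genes. All 3 were below 0 in shares, but on raw counts Foxa2 was above 0. Foxa1 had 11 and 5, and Hnf4g itself had 0 in both lists.

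Other lists of genes also lay near the median of all genes. Among pancreas and gut lineage factors 9 of 14 had 20 or more loops, 0 passed the fold and the median was 0.08. The largest ratios were those of Grhl2, an epithelial factor, with 39 FOXA1 and 14 HNF4G loops (23 and 30 in the tumor line), and Klf5, a gut epithelial factor, with 27 and 11 (25 and 11). Pdx1, the pancreas master factor, had 29 and 13 (16 and 16). Of 14 epithelial genes 9 were tested and 0 passed, with a median of -0.06, and 5 of the 9 were below 0. Cdh1, E-cadherin, had 62 and 28 (41 and 42 in the tumor line) and Krt19, a duct keratin, 61 and 27 (42 and 30). At the other end Muc1, a mucin, had 40 and 38 (40 and 27) and Epcam, an adhesion molecule, 11 and 10 (8 and 15). The mesenchymal and invasion genes (4 of 16 tested, median -0.18), AP-1 factors (6 of 8, -0.29), TGF-beta pathway (4 of 11, 0.06), Hippo pathway (7 of 12, -0.16) and pancreatic cancer drivers (4 of 7, 0.08) had 0 genes past the fold. Among 9 EGF receptors and ligands 5 were tested with a median of 0.12, and Btc alone passed.

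Defining markers at the loop anchors were those of epithelium. All 7 epithelial markers had 20 or more loops, 272 FOXA1 and 146 HNF4G loops in sum. Of 10 hepatocyte markers 3 had any loop (17 and 8), and Alb, Afp and Ttr had 0. Of 7 fibroblast markers 2 had one (17 and 11), of 6 acinar markers 1 (4 and 6), and of 6 immune markers 0.

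Sequence at the anchors was not used to choose them. FOXA1-rich anchors were at promoters in 34.4% of cases and HNF4G-rich anchors in 53.6% (difference -19.2 points, -29.3 to -8.39), beside 53.7% of all 6499. Their median GC content was 46.8%, 51.7% and 50.7%. The motifs searched, on both strands, were TGTTTAC (forkhead), CAAAGTCCA (HNF4), TGANTCA (AP-1) and AGGTGGCAG (CTCF). None of these motifs contains another. Of 32851 mouse RefSeq promoters of 300 bases, 3.65%, 0.475%, 7.81% and 0.782% held them.

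Forkhead matches came at 0.192 per kb in FOXA1-rich and 0.109 in HNF4G-rich anchors, beside 0.150 in all, a ratio of 1.77 (1.24 to 2.55). At least 1 match was in 41.4%, 23.2% and 39.7% of anchors, whose median widths differed (2.84, 2.32 and 3.14 kb), so that these shares compare less directly than the densities. The same letters reversed had a ratio of 1.14 (0.844 to 1.55). AP-1 matches came at 0.535 and 0.416 per kb, beside 0.403 in all, a ratio of 1.29 (1.06 to 1.56), and 0.950 reversed. HNF4 matches were rare, 9 in each set, a ratio of 0.886 (0.311 to 2.52). CTCF matches were 10 and 22, a ratio of 0.403 (0.170 to 0.886). Within ranges of GC content the difference between the sets was -0.00020 per kb for AP-1 and 0.042 per kb for forkhead, and both intervals held 0.

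Ranked over all 6499 anchors, the gradient was shallower than between the extremes. From the quintile of anchors with the most HNF4G to that with the most FOXA1, promoter anchors fell from 59.9% to 44.4% and median GC content from 51.8% to 48.4%. Forkhead matches rose from 0.136 to 0.170 per kb, and the same letters reversed from 0.155 to 0.191. AP-1 matches rose from 0.342 to 0.468 per kb, and the reversed letters from 0.251 to 0.275. The forkhead rise was thus matched by its reversed letters and the AP-1 rise was larger than that of its own.

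**Figure D5:**
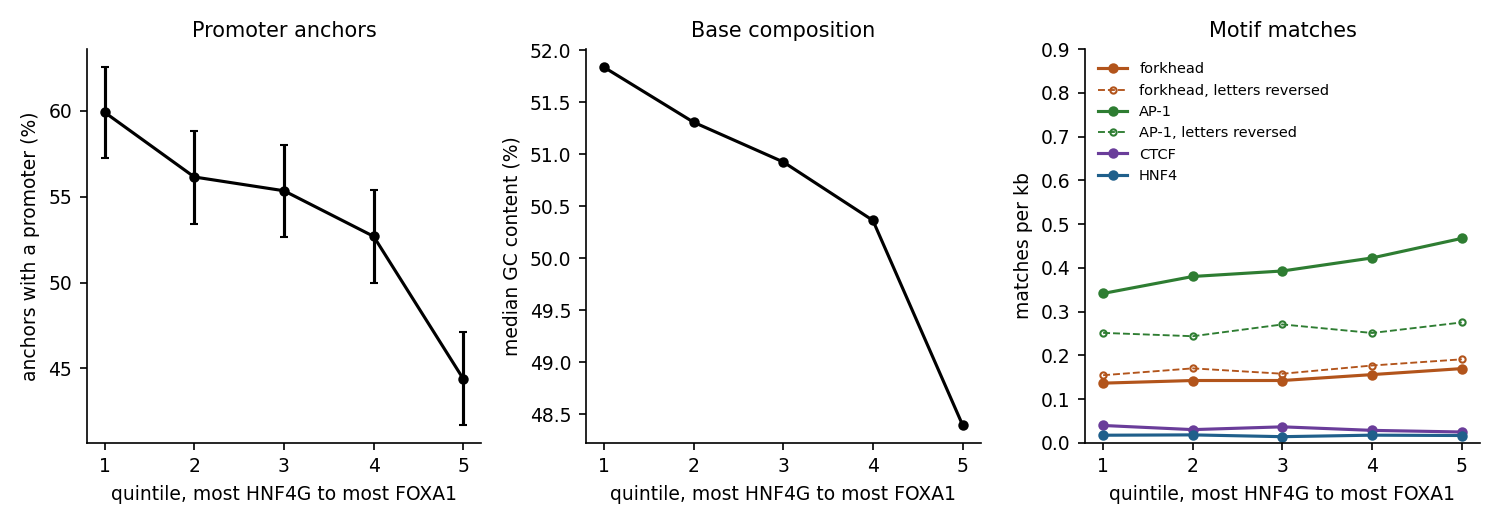
Percentage of anchors at a promoter (with 95% intervals), median GC content (%) and motif matches per kb in 5 quintiles of the 6499 anchors, ordered from most HNF4G to most FOXA1 in the liver mets line. Dashed lines are the forkhead and AP-1 letters reversed. Promoter share fell from 59.9% to 44.4%, and AP-1 matches rose from 0.342 to 0.468 per kb.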

How the data were processed

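Hi-ChIP with FOXA1 and HNF4G antibodies was processed by the authors with HiC-Pro 3.1.0 on mm10 (DpnII fragments, duplicates removed) and hichipper. The deposited lists give anchor pairs and an unnamed score per loop, pooled over replicates. How replicates were joined, the anchors' source and the minimum read support are not given in the sources used here. Spans ran from 5.0 to 2000 kb.

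Loops were matched by identical anchor pairs. Promoter anchors had a GENCODE M21 start within 2 kb, and long loops spanned at least 100 kb. Windows, anchors and genes were compared by ratios of list shares with 1 added to each count, without a test because each group was 1 list. Intervals (Clopper-Pearson, Wilson, Newcombe, Woolf, Mantel-Haenszel) cover counting error only. Motifs were counted in GRCm38 anchor sequence, and promoters came from RefSeq.

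Members and gene lists were chosen with earlier results of these data known. Named were the 5 windows, 8 anchors and 12 genes with the highest and as many with the lowest ratio (40 or more loops for windows, 20 or more otherwise), the 2 highest-value loops of each factor, and list members. Some list members are not reported here. Alternatives changed the loop minimum, scaling, value cut, window size, anchor matching and GC range. Scripts used Python 3.11.15, pandas 2.3.3, numpy 2.4.6 and scipy 1.17.1, and were tested on simulated data.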

Additional observations from a re-analysis of the deposited data

Results flagged for a closer look

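The share of loops of 100 kb or more, FOXA1-only minus HNF4G-only, pointed in opposite directions in the cell lines. It was 3.32 percentage points in the liver mets line and -3.48 points in the tumor line. The difference between the lines was not tested, since each group was 1 joined list.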

How the results depend on the processing

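No paired analysis was possible because both replicates of each group were joined in 1 list, and for the same reason no replicate could be left out. The ratio of list sizes and the promoter difference kept their direction under each alternative run. The share of the HNF4G list also in the FOXA1 list was 67.8% with anchors widened by 5 kb, 28.5% at a value of 2 or more and 18.6% over equal numbers of highest-value loops. The long-loop difference was -3.48 points in the tumor line, an alternative added after seeing the data. The tumor-listing odds ratio was 1.17 at a value of 2 or more, with an interval that held 1.

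Counts past the fold moved most, FOXA1 side first. Raw counts gave 629 windows and 1, 1331 anchors and 5, and 512 genes and 4, so that FOXA1 took 99.8% of the called windows in place of 68.2%, 99.6% of anchors in place of 48.3% and 99.2% of genes in place of 33.9%. A value of 2 or more gave 14 windows and 24 (36.8% FOXA1), 2 anchors and 6, and 1 gene and 9. Far fewer windows, anchors and genes had enough loops to be tested there, so these counts do not compare directly with those as reported. As a share of those tested, calls on the HNF4G side rose for windows, anchors and genes. On the FOXA1 side the share rose for windows and was slightly lower for anchors and genes. Of those 14 windows 2 were among the 60, and of the 24 HNF4G-rich windows 0 were among the 28. The named HNF4G-rich windows had too few loops of that value to be tested. How many of the 60 and of the 28 could be tested is not given here. The overlap therefore cannot show whether the windows kept their side at that value. A minimum of 10 loops gave 910 anchors and 894 of 16423, and 192 genes and 332 of 5781. A minimum of 40 gave 5 anchors and 6 of 1044, and 6 genes and 5 of 1106. A minimum of 60 loops left 8 HNF4G-rich windows of 803, and windows of 500 kb gave 43 of 1266. Counting both anchors gave 103 FOXA1-rich windows of 1252. Scaling to counts expected from the spans of the loops gave 59 windows and 20 of 977. Of these, 49 were among the 60 and 18 among the 28. It gave 162 anchors and 121 of 6499, and 35 genes and 61 of 3108.

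Motif differences per kb were as follows. Forkhead was 0.084 as reported, 0.055 without promoters, 0.025 with reversed letters and 0.042 within GC ranges, each of the last 3 with an interval that held 0. AP-1 was 0.119 as reported, 0.085 without promoters, -0.014 with reversed letters and -0.00020 within GC ranges. CTCF was -0.029 as reported, -0.022 in the central 1 kb and -0.025 without promoters, and its reversed letters had no match on either side. The cause of these changes was not tested, except that fewer loops enter at a higher value or minimum.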
